A study of Mus musculus with 2 samples.

Results

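The genes described here encode the 3 melanin enzymes and 4 further proteins of the melanosome, Tyr, Tyrp1, Dct, Pmel, Mlana, Gpnmb and Cd63. They were chosen by name from the genes that the platform annotation gives to the probe sets, 7 of 19505 named genes. Earlier results of these data were known when these genes and the gene lists used below were chosen. The cells were B16F10, a pigmented melanoma line of the mouse, and their total RNA was hybridised to 1 array per group. The NRF3 group was transfected with an expression plasmid for NRF3, and the GFP group with one for GFP, which is a fluorescent protein. In both groups a puromycin resistance vector was co-transfected, stable cells were selected with puromycin, and forskolin was given for 5 days. The comparison therefore concerns NRF3 under forskolin, a compound that raises cellular cAMP, and no array without forskolin was used. The labels describe stably expressing cells and do not say how many clones they came from. Nor do they give the species of the NRF3 coding sequence on the plasmid.

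Melanin is made in melanosomes, organelles related to lysosomes. Tyrosinase oxidises tyrosine to dopaquinone and limits the rate of the pathway, dopachrome tautomerase (Dct) converts dopachrome, and Tyrp1 acts at a later step of eumelanin synthesis in the mouse. The enzymes work on a sheet of amyloid fibrils that PMEL forms, and MLANA, GPNMB and the tetraspanin CD63 are melanosome membrane proteins. The transcription factor MITF drives many of these genes in melanocytes, and cAMP signalling raises Mitf transcription. NRF3, encoded by Nfe2l3, is a cap'n'collar transcription factor that binds antioxidant response elements with small MAF partners.

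The promoters of the melanin enzymes are shown because they share a run of letters that was not found in the Gpnmb and Cd63 promoters. RefSeq promoter sequences (GRCm38.p6) were matched for 5 of the 7 genes. None was matched for Pmel and Mlana, so their promoters were not examined. The 250 bases before the annotated start are printed 5′ to 3′ on the strand of the gene, with CATGTG or its reverse complement in capitals. CATGTG is a hexamer that MITF binds.
Tyr: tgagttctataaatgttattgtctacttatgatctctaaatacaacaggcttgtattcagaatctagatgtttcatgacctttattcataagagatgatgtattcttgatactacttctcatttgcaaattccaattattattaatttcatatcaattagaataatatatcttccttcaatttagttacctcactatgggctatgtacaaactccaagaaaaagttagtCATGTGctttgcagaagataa
Tyrp1: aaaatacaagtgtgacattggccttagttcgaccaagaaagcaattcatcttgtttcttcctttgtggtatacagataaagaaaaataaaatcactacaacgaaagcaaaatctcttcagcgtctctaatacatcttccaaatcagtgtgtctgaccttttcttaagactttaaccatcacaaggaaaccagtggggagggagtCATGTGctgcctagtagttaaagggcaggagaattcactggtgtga
Dct: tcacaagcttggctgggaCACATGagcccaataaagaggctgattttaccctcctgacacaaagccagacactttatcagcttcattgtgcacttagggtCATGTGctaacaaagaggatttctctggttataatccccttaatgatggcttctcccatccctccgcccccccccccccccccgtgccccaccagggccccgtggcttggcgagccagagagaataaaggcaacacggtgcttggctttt
The Tyr sequence is chr7:87493513-87493762 on the minus strand, the Tyrp1 sequence chr4:80833963-80834212 on the plus strand and the Dct sequence chr14:118052247-118052496 on the minus strand.

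CATGTG, searched on both strands, began 21 bases before the start of Tyr and 46 bases before that of Tyrp1. In Dct it was found once on the strand of the gene, 150 bases before the start, and once on the other strand, 232 bases before it. It was found in neither the Gpnmb nor the Cd63 promoter. Of all 32851 promoters of the same length, 12.3% held it. The longest run common to the 3 enzyme promoters had 10 bases, GTCATGTGCT, and contained the hexamer. That run, chosen after the sequences were seen, was present in 0.155% of all promoters. CACGTG (6.02% of all promoters), the cAMP response element TGACGTCA (1.55%) and the antioxidant response element core TGACNNNGC (10.2%) were found in none of the 5 promoters on either strand. TATAAA, held by 12.4% of all promoters, was found in that of Tyr, 243 bases before the start. These matches describe letters and not binding.

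All 7 genes were detected, and each had 1 probe set. Detected means that the brighter value reached 5.89, the median of all values of named probe sets. This floor lies under the medians of the negative control rows, 6.37 on the NRF3 array and 6.12 on the GFP array. A detected gene can thus be no brighter than those rows. Values are log2 RMA values, which are background-adjusted and normalised probe set summaries. With 1 array per group there is no replicate check, no error and no p-value for any difference, and each difference compares these 2 RNA samples. Nfe2l3, the expressed gene, had a log2 value of 10.1 in NRF3 cells and 6.04 in GFP cells. It was higher in the group labelled for it, and the GFP value lay under the median of the negative control rows, 6.12. The medians of all 28846 values were 6.13 and 6.05 on the NRF3 and GFP arrays, and the median difference, NRF3 minus GFP, over the 10162 detected genes was -0.07. A scanner reading of 16 bits ends at a log2 of 16, yet 279 rows on the NRF3 array and 288 on the GFP array lay above it, so folds are folds on the deposited scale.

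Tyr was the only member past 1.5-fold. It was 2.66-fold higher in NRF3 cells, whereas the other 6 genes had log2 differences, NRF3 minus GFP, between -0.56 and 0.12, all within 1.5-fold. At least 1.5-fold higher was thus met by 1 of 7 members, against 17.0% of all detected genes, and at least 1.5-fold lower by 0 of 7, against 23.6%. Over all detected genes these shares were 1728 higher and 2396 lower genes, and after median centring 2218 higher and 1925 lower. In bulk RNA, more cells that transcribe a gene and more RNA of it per cell cannot be told apart. The median difference of the 7 was -0.02, close to that of all detected genes. Tyr also passed a 2-fold rule, which 6.75% of detected genes passed upward and 11.0% downward. With a rule of size at a ratio of 5 to 4 between the arrays, Mlana and Gpnmb were lower, 2 of 7 against 36.1% of detected genes. Tyr alone was higher, against 28.2%. Gpnmb no longer passed that rule after median centring, at -0.23, or quantile normalization, at -0.18. Apart from the 2-fold rule upward, which a single gene decides, these shares are near or under the background, and nothing particular to the 7 genes is read from them.

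**Figure D1:**
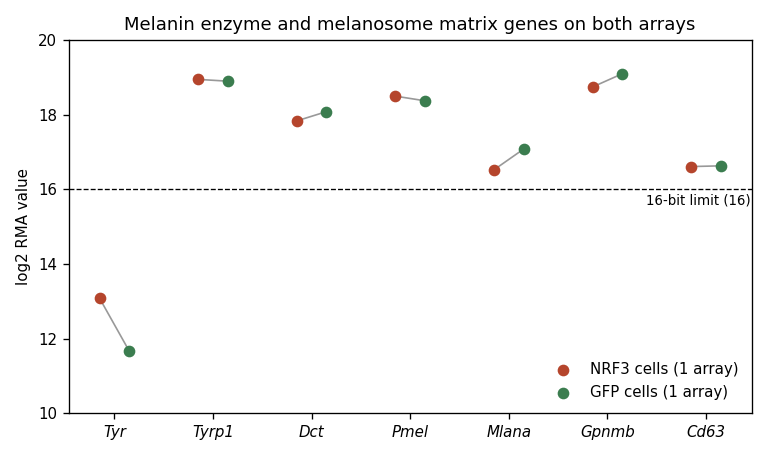
The log2 RMA value of each gene (vertical axis) is plotted for the NRF3 array, left, and the GFP array, right, with a line joining both values of a gene; there is 1 array per group and no error bar. Tyr lies at 13.1 in NRF3 cells and 11.7 in GFP cells, and the other 6 genes lie above 16 on both arrays (dashed line).

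Among the enzymes, Tyr (NCBI gene 22173, chromosome 7) had a log2 value of 13.1 in NRF3 cells and 11.7 in GFP cells, a difference of 1.41. Both values lay far above the upper quartiles of the negative control rows, 7.85 on the NRF3 array and 7.52 on the GFP array. Among the 19505 named genes it ranked 1102 on the NRF3 array and 2251 on the GFP array. A rank is unaffected by any compression of the scale that keeps the order of values. Tyrp1 (NCBI gene 22178, chromosome 4) had 18.9 in NRF3 cells and 18.9 in GFP cells, a difference of 0.05, with ranks of 5 on the NRF3 array and 7 on the GFP array. Dct (NCBI gene 13190, chromosome 14) had 17.8 in NRF3 cells and 18.1 in GFP cells, a difference of -0.25, with ranks of 28 on the NRF3 array and 25 on the GFP array. The gene of the rate-limiting enzyme was therefore the only one of the 3 enzyme genes past 1.5-fold on these arrays.

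Pmel (NCBI gene 20431, chromosome 10), which encodes the fibril protein, had 18.5 in NRF3 cells and 18.4 in GFP cells, a difference of 0.12, with ranks of 14 on the NRF3 array and 15 on the GFP array. Mlana (NCBI gene 77836, chromosome 19) encodes a small membrane protein that binds PMEL in early melanosomes. It had 16.5 in NRF3 cells and 17.1 in GFP cells, a difference of -0.56, which left it just inside the 1.5-fold rule at 1.47-fold lower. Its rank was 108 on the NRF3 array and 70 on the GFP array. Steps in rank are not comparable between genes, since 140 genes lie at levels of 16 to 18 and 25 above 18. Gpnmb (NCBI gene 93695, chromosome 6), which encodes a glycoprotein related to PMEL, had 18.7 in NRF3 cells and 19.1 in GFP cells, a difference of -0.35, with ranks of 6 on the NRF3 array and 5 on the GFP array. Cd63 (NCBI gene 12512, chromosome 10), whose tetraspanin helps sort PMEL into melanosome vesicles, had 16.6 on both arrays, a difference of -0.02, with ranks of 97 on the NRF3 array and 100 on the GFP array. None of the 4 matrix and membrane genes reached 1.5-fold. Centring both arrays on the median of the detected genes added 0.13 to every difference, which turned Cd63 to 0.11, and quantile normalization turned it to 0.03, so its direction depends on the scaling. The differences of the other 6 genes kept their sign under both. Quantile normalization brought Dct to -0.05 and Pmel to 0.05, so their signs rest on small values.

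The size of a difference depended on the level at which it was measured. The interquartile range of the log2 differences was 0.89 for 1234 genes of mean level 12 to 14, the range that holds Tyr. It was 0.80 for the 140 genes of level 16 to 18, where Dct, Mlana and Cd63 lay, and 0.27 for the 25 genes above 18, where Tyrp1, Pmel and Gpnmb lay. Of those 25 genes, 1 passed the 1.5-fold rule upward and 1 downward. Nearly all genes at the top of the scale thus differed little, and the small differences of Tyrp1 and Pmel do not show equal transcript amounts.

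**Figure D2:**
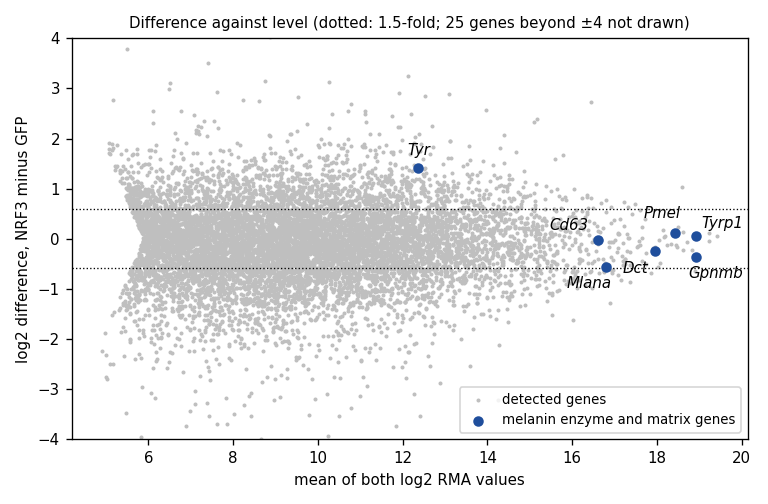
The log2 difference, NRF3 minus GFP (vertical axis), is plotted against the mean of both log2 RMA values (horizontal axis) for the detected genes in grey and the 7 pigment genes in blue; dotted lines mark 1.5-fold, and 25 genes beyond 4 in either direction are not drawn. Tyr lies above the upper line at 1.41, and the other 6 lie between the lines at mean levels above 16. The cloud is clearly narrower only above 18, where Tyrp1, Pmel and Gpnmb lie.

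Each gene was therefore set beside the 200 named genes nearest in mean level, as a description of these arrays and not as a test. The difference of Tyr exceeded those of 192 of its 200 neighbours, whose mean levels ran from 12.2 to 12.5. The quartiles of the neighbours were -0.55 and 0.35, and their 95th percentile was 1.29. With neighbours taken by the GFP value alone, 197 of 200 were lower than Tyr. Tyr was thus near the upper end of the genes at its level on these arrays, and 8 of those 200 had a higher difference. By size in either direction, 183 of the 200 differed by less than Tyr.

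For the brighter genes the window of 200 reached far down the scale, to 15.7 for Tyrp1, Dct, Pmel and Gpnmb and to 15.5 for Mlana and Cd63, so smaller windows are given beside it. Of the 200 neighbours, 118 had a lower difference than Tyrp1, 131 than Pmel, 108 than Cd63, 69 than Dct, 63 than Gpnmb and 37 than Mlana. Among the 50 nearest, 33 were lower than Tyrp1, 39 than Pmel, 26 than Cd63, 14 than Dct, 9 than Gpnmb and 11 than Mlana. Tyrp1, Dct and Cd63 thus lay well inside the genes of their level.

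Gpnmb changed place with the window. Its difference of -0.35 lay inside the quartiles of the wide window, -0.45 and 0.24. Among the 20 nearest genes, a window added after the data were seen and spanning 18.2 to 19.4, only 1 had a lower difference, and the 5th percentile was -0.25. Those 20 genes include Tyrp1 and Pmel. Mlana kept to the lower side, with 5 of the 20 nearest genes below it, and Pmel to the upper side, with 15 of 20 below it.

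**Figure D3:**
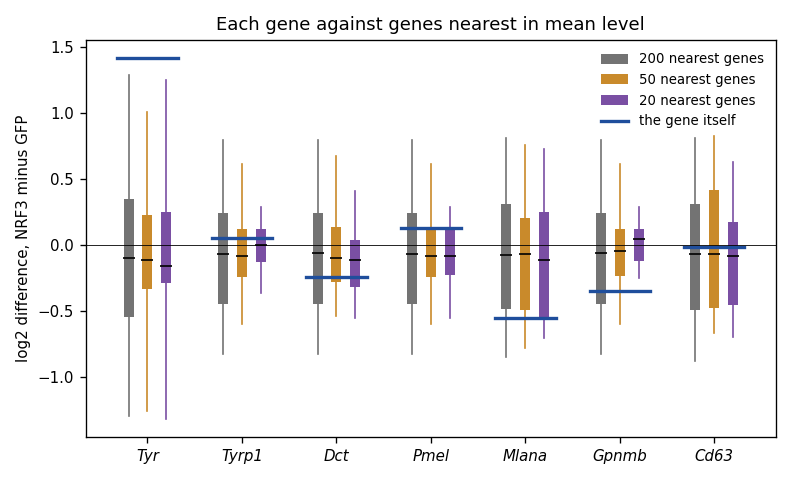
For each gene, the log2 difference NRF3 minus GFP (blue line; vertical axis) is set against the differences of the 200, 50 and 20 named genes nearest in mean level, drawn as the median (tick), the quartiles (thick bar) and the 5th to 95th percentile (thin line). Tyr lies above the 95th percentile in each window, and Gpnmb lies below the 5th percentile only in the window of 20.

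The genes nearest to each member over the 2 log2 values, by Euclidean distance, were of mixed kinds. For Tyr they were Gnpat, of ether lipid synthesis, with a difference of 1.40, and the myotubularin-related gene Mtmr10, with 1.39, at distances of 0.05 and 0.09. For Pmel they were the glycolytic gene Aldoa, at 0.13, and the RNA gene Rmrp, at 0.12. For Mlana they were Vdac2, a mitochondrial channel gene, at -0.49, and Sparc, a matrix glycoprotein gene, at -0.64. Dct lay beside Hnrnpk, at -0.17, and Eif5a, at -0.19, and Cd63 beside Slc38a1, at -0.09, and Hdlbp, at 0.16. The nearest to Tyrp1 were Actb, at -0.23, and Gpnmb, and the nearest to Gpnmb were Actb and the metallothionein gene Mt1, at -0.64. Over 2 arrays such closeness says only that both values are alike.

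The 7 genes lie on 6 chromosomes. The median difference of the 50 detected genes around Tyr on chromosome 7 was 0.21, with quartiles of -0.22 and 0.63. Of these neighbours 16 passed the 1.5-fold rule upward and 5 downward, against 17.0% and 23.6% of all detected genes, and their part in the difference of Tyr was not tested. With their median subtracted Tyr was higher by 1.20. The median around Mlana on chromosome 19 was -0.16. Pmel and Cd63 share chromosome 10, with 7 detected genes between them, near the end of the chromosome. The 34 detected neighbours of Pmel had a median of -0.30 and the 26 of Cd63 one of -0.35. Relative to these medians Pmel was 0.42 and Cd63 0.33 higher. The neighbours of Dct, 44 genes, had a median of -0.27, close to the -0.25 of Dct itself, those of Tyrp1 one of -0.22 and those of Gpnmb one of 0.05.

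Counts were also taken over all detected genes whose promoter held a motif. Of 764 detected genes with CATGTG in the 250 bases, 126, or 16.5%, passed the 1.5-fold rule upward and 165, or 21.6%, downward, and the median difference was -0.10. Over all 8387 detected genes with a promoter in the table the shares were 16.8% and 23.6%. Genes with CACGTG, 840 detected, passed upward in 21.0% and downward in 21.5%. Those with TGACGTCA, 257 detected, passed upward in 14.4% and downward in 23.0%, and those with TGACNNNGC, 1135 detected, in 18.1% and 23.4%. For TATAAA, with 668 detected genes, the shares were 19.0% and 24.0%. Whether any motif bears on the difference of Tyr was not tested. Only 4 detected genes held the 10-base run. They were the 3 enzyme genes and Tmem140, which had 7.74 in NRF3 cells and 6.57 in GFP cells, both under the upper quartiles of the negative control rows.

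Of 10 detected regulators of pigment genes, 5 passed the 1.5-fold rule upward and 0 downward, against 17.0% and 23.6% of all detected genes. The median difference of the 10 was 0.43. Mitf, the master regulator of the lineage, had 15.2 in NRF3 cells and 14.3 in GFP cells, a difference of 0.93. Tfeb, a relative of Mitf that controls lysosome genes, was higher by 0.89, with values of 7.79 in NRF3 cells and 6.90 in GFP cells that lay under the upper quartiles of the negative control rows, 7.85 and 7.52. Mc1r, the melanocortin receptor gene, was higher by 0.79, and its detected neighbours on chromosome 8 had a median of 0.46. The others past the rule were Tfe3, at 0.78, and Tfap2a, at 0.59. The lowest were Sox10, a neural crest factor that acts on Mitf and Dct, at -0.49, and Pax3, at -0.33. The detected genes around Sox10 on chromosome 15 had a median of -0.41, and those around Pax3 on chromosome 1 one of -0.40. The part of the chromosome in these differences was not tested. Kit and Usf1, also counted as detected, were dim. Kit, with 6.24 in NRF3 cells and 5.97 in GFP cells, lay under the medians of the negative control rows. Usf1, with 7.58 in NRF3 cells and 7.33 in GFP cells, lay under their upper quartiles. With undetected members included, the list median was 0.10.

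More genes that cleave or sort PMEL were lower than higher. PMEL is cut by a furin-type convertase and by BACE2 before its fragment can form fibrils, and ADAM and gamma-secretase proteins process what remains. Of 11 detected genes 6 passed the 1.5-fold rule downward and 3 upward, against 23.6% and 17.0% of all detected genes. Their median difference was -0.59. Adam10, a membrane sheddase gene, had 10.6 in NRF3 cells and 12.6 in GFP cells, a difference of -1.95. Psen2, a gamma-secretase subunit gene, had 10.3 in NRF3 cells and 11.6 in GFP cells, a difference of -1.26. Psen2 and Ncstn, another subunit gene at -1.22, lie on chromosome 1, where the detected genes around them had medians of -0.56 and -0.65. The part of the chromosome in these differences was not tested. Bace2 differed by -0.78. The highest were Sdcbp, whose product binds CD63 in vesicle formation, at 0.89, and Apoe, whose product carries PMEL fragments on vesicles, at 0.87. Mmp14, at -0.59, and Furin, at 0.61, lay just past the 1.5-fold rule. With median centring or quantile normalization 5 genes passed downward and 3 upward. Of all 10162 detected genes, 1925 then passed downward and 2218 upward with median centring, and 2023 and 2119 with quantile normalization.

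**Figure D4:**
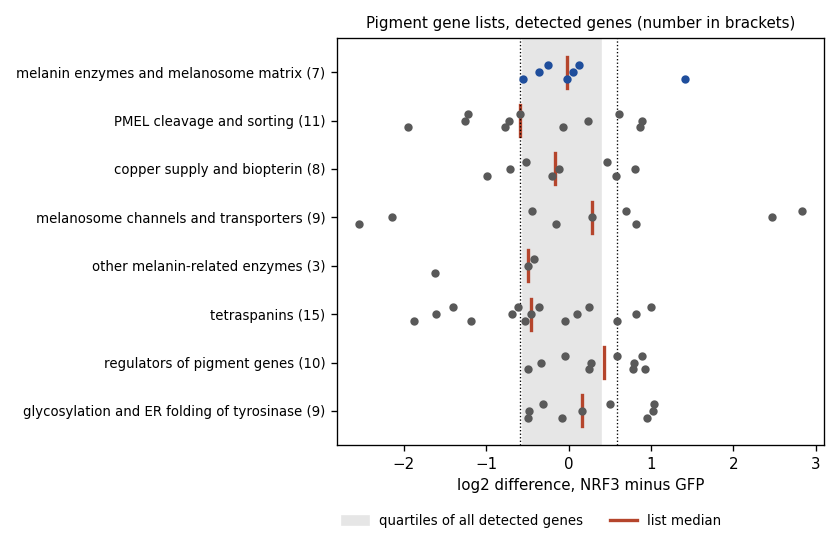
Each point is a detected gene placed by its log2 difference NRF3 minus GFP (horizontal axis), with the lists in rows; red ticks are list medians, the grey band spans the quartiles of all detected genes, and dotted lines mark 1.5-fold. Of the 7 melanin enzyme and matrix genes, Tyr lies at 1.41 and the other 6 between -0.56, the value of Mlana, and 0.12. The PMEL cleavage list has its median at -0.59 and the regulator list at 0.43.

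Tetraspanin genes other than Cd63 were spread widely. Of 15 detected, 3 were higher by the 1.5-fold rule and 6 lower, against 17.0% and 23.6% of all detected genes, and their median difference was -0.45. After median centring 4 passed downward and 3 upward, against 1925 and 2218 of all 10162 detected genes. Cd151, at 0.998, and Tspan6, at 0.82, were the highest, and Tspan14, at -1.87, and Tspan3, at -1.61, the lowest. Tspan10, the gene of oculospanin, differed by 0.59. Cd63, at -0.02, lay between these ends. Tmem130, a further relative of Pmel and Gpnmb, was not detected.

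Tyrosinase needs copper, tyrosine and folding in the endoplasmic reticulum. Of 8 detected genes of copper supply and biopterin synthesis, 1 was higher by that rule and 2 lower, near the 17.0% and 23.6% of all detected genes, and the median difference was -0.16. After median centring 3 were higher and 2 lower, against 2218 and 1925 of all 10162 detected genes. The copper chaperone gene Atox1 lay at -0.99 and the copper importer gene Slc31a1 at -0.72, while Commd1, a copper homeostasis gene, lay at 0.81 and Qdpr, of biopterin recycling, at 0.57. Atp7a, which encodes the pump that loads copper into tyrosinase, differed by -0.21. Of 9 detected genes of glycoprotein folding, 3 were higher and 0 lower by the same rule, against the same shares of 17.0% and 23.6%, and the median difference was 0.16. After median centring 4 were higher and 0 lower, against 2218 and 1925 of all 10162 detected genes. The lectin chaperone gene Calr, at 1.03, and Edem1, of glycoprotein degradation, at 1.03, were the highest, and the glucosidase genes Mogs, at -0.50, and Ganab, at -0.48, the lowest. Calr lies on chromosome 8, where its detected neighbours had a median of 0.57. Canx, the gene of calnexin, which folds tyrosinase, differed by -0.07. Of the 3 detected other melanin-related enzyme genes, Gstp1 differed by -1.62, Ddt by -0.49 and Mif, whose product has dopachrome tautomerase activity in vitro, by -0.42.

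Of 9 detected melanosome channel and transporter genes, the 1.5-fold rule was passed upward by 4 and downward by 2, against 17.0% and 23.6% of all detected genes, and the median difference was 0.28. Oca2, whose product sets melanosome pH, had 10.9 in NRF3 cells and 8.12 in GFP cells. Trpm1, a melanocyte channel gene, had 12.3 in NRF3 cells and 14.9 in GFP cells. Slc24a4 and Mfsd12, at 2.47 and -2.14, each had 1 value under the median of the negative control rows. Those medians were 6.37 on the NRF3 array and 6.12 on the GFP array, so the sizes of both differences depend on background. Slc24a4 had 5.84 in GFP cells and Mfsd12 5.70 in NRF3 cells, both under the detection floor of 5.89. Each was thus detected only through the array where it was higher. Both are among the genes counted past the rule, so these counts also depend on background.

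The melanocyte lineage markers Tyr, Tyrp1, Dct, Pmel, Mlana, Mitf and Sox10 were all detected on both arrays. Because Gpnmb and Cd63 are also genes of macrophages, markers of other cells were examined. Of 9 named macrophage and leukocyte markers 1 was detected, Fcgr1, at 6.24 in NRF3 cells and 6.27 in GFP cells, near the medians of the negative control rows. Of 7 fibroblast and endothelial markers 1 was detected, Pdgfrb, at 5.79 in NRF3 cells and 6.02 in GFP cells, under those medians, and of 7 keratinocyte markers none. Ptprc, Csf1r and Adgre1 lay under the floor on both arrays.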

How the data were processed

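Total RNA of 1 NRF3 and 1 GFP sample was read on single-colour Affymetrix arrays. The authors deposited log2 expression values per probe set, made with Affymetrix Expression Console and RMA per the submitters' processing notes. Tool versions, background settings and the build were not given in the sources used here. This method scales arrays to each other at the probe level, so a shift common to all genes would be largely removed. Over the 10162 detected genes the median difference in the deposited values was still -0.07. Of 28846 rows, 19572 carried 1 gene symbol in the platform annotation, none several and 9274 none; these left 19505 genes after the probe set with the highest mean was kept per gene. All 19505 matched the RefSeq gene table (GRCm38.p6) by gene number. It was used for chromosomes and gene order only.

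Differences are NRF3 minus GFP. Array data give no read depth, the number of arrays limits the precision, and with 1 array per group no test was run. At least 1.5-fold either way is a rule of size. Each gene was placed among the 200 named genes nearest in mean level, and its chromosome neighbours were the 25 detected genes on either side where present. Named genes were the 7 members, Nfe2l3, Mitf, the 2 highest and 2 lowest detected members of each list, and the 2 genes nearest to each member over both values, with predicted models and ribosomal, histone and receptor families passed over. Other genes named, among them Bace2, Ncstn, Mc1r, Tfe3, Tspan10, Atp7a, Canx, Tmem140 and those just past the rule, were chosen after their values were seen. The members and lists were chosen with earlier results of these data known. Promoter motifs were searched with Python 3.11.15 and pandas 2.3.3 in RefSeq sequences (GRCm38.p6). Protein sequences were not used here.

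Alternatives were median centring, quantile normalization, a lowess trend (span 0.3, statsmodels 0.14.6), the mean over probe sets, chromosome neighbours, other size rules, floors and windows.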

Additional observations from a re-analysis of the deposited data

How the results depend on the processing

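With 1 array per group, no setting can measure the spread between cultures, and no array could be left out. No paired analysis was possible because each group has 1 array and no result comes from a test. A member's difference was said to move when it shifted by more than the interquartile range of its 50 level neighbours divided by 1.349. For shares of neighbours the limit was 10 percentage points and for list medians 0.26 on the log2 scale. Each member has 1 probe set, so the mean over probe sets could change nothing. Tyr lay between 1.20 and 1.54, past 1.5-fold, under median centring, quantile normalization, lowess trend subtraction and subtraction of chromosome neighbours. Pmel moved to 0.42 with its chromosome neighbours subtracted, where Dct turned to 0.02. With a rule of size at a ratio of 5 to 4, 2 members were lower on the deposited scale. With neighbours chosen on the GFP array alone, the share of neighbours with a lower difference was 69% for Tyrp1, 44.5% for Dct and 65% for Cd63. With the 50 nearest genes it was 78% for Pmel and 18% for Gpnmb, and with the 20 nearest, added after the data were seen, 5% for Gpnmb. The 200 genes around the brightest members reach down to levels where differences spread more, so the windows do not compare the same range. List medians that moved with the floor were those of copper supply and biopterin (0.13 with a higher floor, the 75th percentile of named values), other melanin-related enzymes (-1.02 with that floor) and regulators (0.10 with none).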
